A study of Mus musculus with 3 samples.

Results

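The genes described here were 10 genes of the cardiac Z-disc, namely alpha-actinin 2 (Actn2) and proteins that bind it or lie beside it: Ldb3, Myoz2, Csrp3, Tcap, Ankrd1, Ttn, Nebl, Xirp1 and Des. Every array probe carrying one of these gene names was taken, which gave 23 probes of 41174 on the array. All 10 genes had a probe, and all 23 probes were among the 29576 probes of 20603 genes bright enough to be tested. Ttn was read by 9 probes, Ldb3 and Nebl by 3 each, Myoz2 by 2 and the other genes by 1 probe each.

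Whole hearts of C57/BL6 mice at 2 months of age were compared between the genotypes Lrrc10-/- and Lrrc10+/+ (WT) on 3 arrays with 2 colours. LRRC10 is a leucine-rich repeat protein of cardiomyocytes, and the mice are a germline knockout compared with littermates. On every array RNA pooled from 2 hearts labelled Lrrc10-/- carried Cy5 and RNA pooled from 2 hearts labelled WT carried Cy3, with no dye swap. The dye and the genotype therefore cannot be told apart on these arrays. The labels call the WT channel a reference pool, and the methods speak of independent biological replicates without saying this of each genotype. If the same WT RNA was used on each array, the tests below hold nothing of how WT pools vary. A difference between pools of whole hearts can come from fewer cells of a type or from less RNA per cell, and the arrays cannot tell these apart.

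The Z-disc is the border of the sarcomere, where thin filaments of opposite polarity are crosslinked by alpha-actinin and where titin is anchored. Around alpha-actinin sits a layer of adaptor proteins with PDZ, LIM or ankyrin repeat domains that bind kinases, phosphatases and stretch-sensitive factors. Mutations in several of these genes cause dilated or hypertrophic cardiomyopathy. The comparison asks whether their mRNAs differed between hearts with and without Lrrc10.

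Probe sequences are shown for genes in which the array reads a coding stretch, because a ratio describes only the transcripts that hold that stretch. Each is the 60-base probe as given in the array annotation, 5′ to 3′. In the Des probe the capitals mark the stop codon of the reading frame. In a Ttn probe the capitals mark an 11-base run that occurs 2 times.
Actn2 A_51_P108266: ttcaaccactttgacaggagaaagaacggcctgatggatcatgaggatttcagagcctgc
Ldb3 A_52_P389874: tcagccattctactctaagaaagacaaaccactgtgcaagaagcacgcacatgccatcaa
Myoz2 A_51_P248638: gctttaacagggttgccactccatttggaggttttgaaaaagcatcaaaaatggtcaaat
Csrp3 A_51_P133684: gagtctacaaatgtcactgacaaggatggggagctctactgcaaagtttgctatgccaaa
Des A_51_P335969: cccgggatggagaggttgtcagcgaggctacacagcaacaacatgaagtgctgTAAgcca
Ttn A_51_P191400: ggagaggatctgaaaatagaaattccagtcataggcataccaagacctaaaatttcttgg
Ttn A_52_P454295: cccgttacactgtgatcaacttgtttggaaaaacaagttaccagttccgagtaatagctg
Ttn A_52_P569906: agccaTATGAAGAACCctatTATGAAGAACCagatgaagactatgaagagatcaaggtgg
Ttn A_51_P401792: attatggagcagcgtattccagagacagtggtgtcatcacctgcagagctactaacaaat
Ttn A_52_P524700: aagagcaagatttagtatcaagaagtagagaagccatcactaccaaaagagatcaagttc

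The deleted gene was checked before the others. The Lrrc10 probe was the brighter one in Cy5, the dye labelled Lrrc10-/-, on replicates 1, 2 and 3, and its log2 ratio was 5.37 ± 0.41 (SD, n = 3; limma, Benjamini-Hochberg adjusted p = 2.51e-04). This goes against the labels. Whether the probe lies in the deleted part was not determined here. Nppa, the atrial natriuretic peptide gene, was brighter in Cy3 on each array, with log2 ratios of −0.89, −0.61 and −0.82. The study describes this gene as raised in the knockout, which is opposite to the direction the labels give here. An exchange of dyes or labels would turn every direction given here, and it was not tested. Directions are therefore given by channel, as the Cy5 channel (labelled Lrrc10-/-) or the Cy3 channel (labelled WT), and log2 ratios are Cy5 over Cy3. All 9 cardiomyocyte markers were well above background in both channels of every array, and 7 of them were saturated somewhere. The median processed signal of tested probes lay between 368 and 546 in both channels. The correlation of log2 ratios between arrays, across all tested probes, ran from −0.18 to 0.10. The Cy5 pool of replicate 2 stood apart in some atrial genes. Myl7, the atrial myosin light chain, read 111, 3021 and 84.4 in Cy5, and Sln, an atrial regulator of the calcium pump, read 50.1, 1264 and 42.6. Of the other atrial markers, Nppa and Nr2f2 were brighter in Cy3 on replicate 2.

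As measured, none of the 10 Z-disc genes differed between the channels in the same direction on all 3 arrays. The ratios of all 23 probes changed sign between arrays, whereas 21.0% of all tested probes had ratios of one sign throughout. The sign of Tcap on replicates 2 and 3 rests on saturated spots and is not settled. With limma, 0 of 23 probes passed at an adjusted p under 0.05, beside 0.00676% of all tested probes, and 0 of 23 had an unadjusted p under 0.05, beside 3.07%. The methods' t-test also called 0 of 23, both before and after adjustment. The selection of the methods asks for a ratio past 1.2 in a common direction on each of the 3 arrays and for a p under 0.05, read here as the p of each array. It took 0 of 23 probes as brighter in Cy5 (background 0.406%) and 0 of 23 as brighter in Cy3 (background 0.511%). The adjusted p of every Z-disc probe rounded to 1.00 in limma. With 3 arrays an exact sign-flip test of a single probe cannot go below p = 0.25, two-sided.

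These counts do not show that the mRNA levels were equal. The 95% interval of the mean log2 ratio spanned 0 for all 23 probes, and it lay within −1 and 1 for 17 of them. The median over the 10 genes, each by its brightest probe, was −0.12, beside 0.00 over all tested probes. It lies between the measured means of Tcap and Csrp3, which include saturated spots, so it is no firm estimate. With saturated probes left out, the median over the remaining 7 genes was −0.07. By array the median over the 10 genes was −0.04, −0.51 and 0.30 on replicates 1, 2 and 3. The sign of the median over the 10 genes was not stable, since it was 0.03 without replicate 2. The median was 0.07 with normexp background correction and loess, and 0.55 with normexp and median centring (0.15 over all tested probes there). These 2 values again lie between Tcap and Csrp3, and their sign is not read. In the deposited values the genes were on balance brighter in Cy3 on replicate 2 and brighter in Cy5 on replicate 3.

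**Figure D1:**
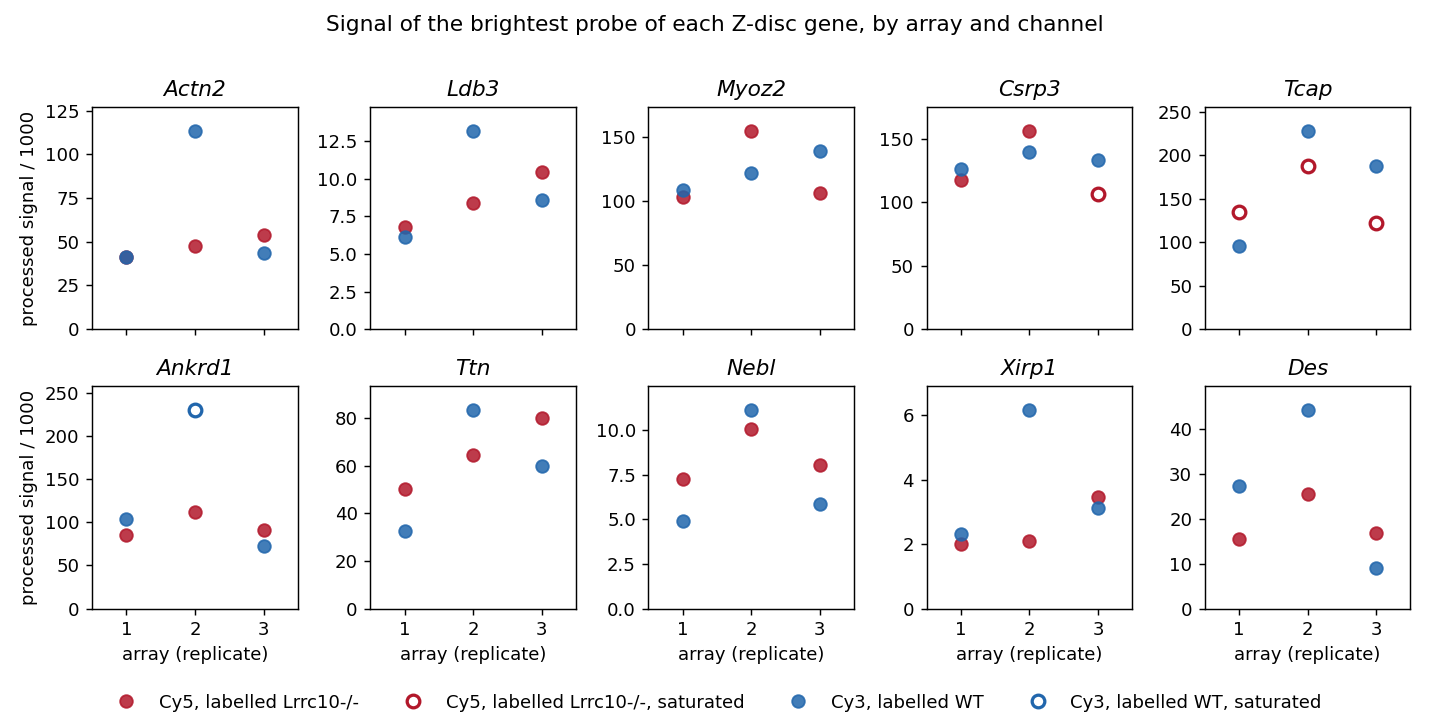
Processed signal divided by 1000 (vertical axis, from 0, a separate scale for each gene) of the brightest probe of each of the 10 genes on arrays 1 to 3 (horizontal axis). Red points are Cy5 (labelled Lrrc10-/-), blue points are Cy3 (labelled WT), and open points were saturated. In 8 of 10 genes the Cy3 points are spread over a wider range than the Cy5 points. The 8 include Tcap, whose Cy5 points were all saturated. By SD with each channel centred on its array median, Cy3 varied more than Cy5 in 77.7% of all tested probes. For Actn2 the Cy3 point of array 2 stands at 113558 beside 41264 and 43443 on the other arrays.

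Actn2 encodes the alpha-actinin that crosslinks actin in the cardiac Z-disc. Its Cy5 signal was 41338, 47627 and 53703 on replicates 1, 2 and 3. Its Cy3 signal was 41264, 113558 and 43443. The channels were level on replicate 1, Cy3 was far brighter on replicate 2, and the ranges overlapped. The log2 ratios were 0.00, −1.25 and 0.31, with a mean of −0.32 ± 0.83 (SD, n = 3; 95% interval −1.01 to 0.38; limma adjusted p = 1.00). Replicate 2 on its own passed an array p under 0.05, which covers the error of the spot alone. Without replicate 2 the mean log2 ratio was 0.15, of the opposite sign.

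Ldb3 (Cypher or ZASP) is a PDZ-LIM protein that binds alpha-actinin and tethers protein kinase C. Its brightest probe, A_51_P265348, read 6793, 8422 and 10475 in Cy5 and 6159, 13203 and 8584 in Cy3. Cy3 was highest on replicate 2, and the channels overlapped. A further probe for the same transcript record, A_51_P265351, read 5472, 6587 and 8005 in Cy5 and 6397, 14209 and 7270 in Cy3. The coding probe A_52_P389874, which annotates a different Ldb3 record, read 1421, 2458 and 2966 in Cy5 and 1487, 4032 and 2200 in Cy3. All 3 probes had their lowest ratio on replicate 2, from −1.11 to −0.65, and their highest on replicate 3, from 0.14 to 0.43. Their mean log2 ratios ran from −0.40 to −0.07. For the brightest probe the 95% interval was −0.60 to 0.45, and without replicate 2 its mean was 0.21.

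Myoz2 (calsarcin-1) binds alpha-actinin and the phosphatase calcineurin, whose signalling it restrains. The coding probe A_51_P248638 read 102956, 155046 and 106120 in Cy5 and 108707, 121670 and 139495 in Cy3. Here Cy5 was the brighter channel on replicate 2, opposite to Actn2 and Ldb3, and Cy3 was brighter on replicate 3. The mean log2 ratio was −0.04 ± 0.37 (SD, n = 3; 95% interval −0.55 to 0.46). The dimmer probe A_52_P403266, made for a cDNA clone, had log2 ratios of −0.79, 0.66 and −0.20. Both Myoz2 probes had a positive ratio on replicate 2 and negative ratios on the other arrays.

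Csrp3 (muscle LIM protein) is a LIM-only adaptor that binds alpha-actinin and telethonin and is part of the stretch response of the cardiomyocyte. Its Cy5 signal was 117607, 156486 and 106589, the last of them saturated. Its Cy3 signal was 126601, 139891 and 133559. The raw Cy5 signals of replicates 1 and 2, at 63196 and 63730, lay close to the saturated 65261 of replicate 3. The log2 ratios of replicates 1 and 2 were −0.11 and 0.16. The ratio of replicate 3 has only a bound, since the saturated Cy5 signal may be too low, and no mean over all arrays is read as an estimate.

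Tcap (telethonin) clamps the N-terminal ends of adjacent titin molecules together at the Z-disc. Its Cy5 signal was 134670, 187285 and 121701 and was saturated on all 3 arrays, so that the true Cy5 level and the ratio have only a bound. Its Cy3 signal was 95916, 228514 and 188294. The measured Cy5 signal was above Cy3 on replicate 1 and below it on replicates 2 and 3, and no fold is read from these values.

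Ankrd1 (CARP) is a stress-inducible ankyrin repeat protein that shuttles between titin and the nucleus, and its mRNA commonly rises in strained myocardium. Its Cy5 signal was 85363, 111711 and 91392. Its Cy3 signal was 103877, 230323 and 72883, with the value of replicate 2 saturated. Cy3 was the brighter channel on replicates 1 and 2, and Cy5 on replicate 3. With the saturated spot at its measured value, the mean log2 ratio was −0.33 ± 0.69 (SD, n = 3; 95% interval −0.97 to 0.30; limma adjusted p = 1.00), and without replicate 2 it was 0.02.

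**Figure D2:**
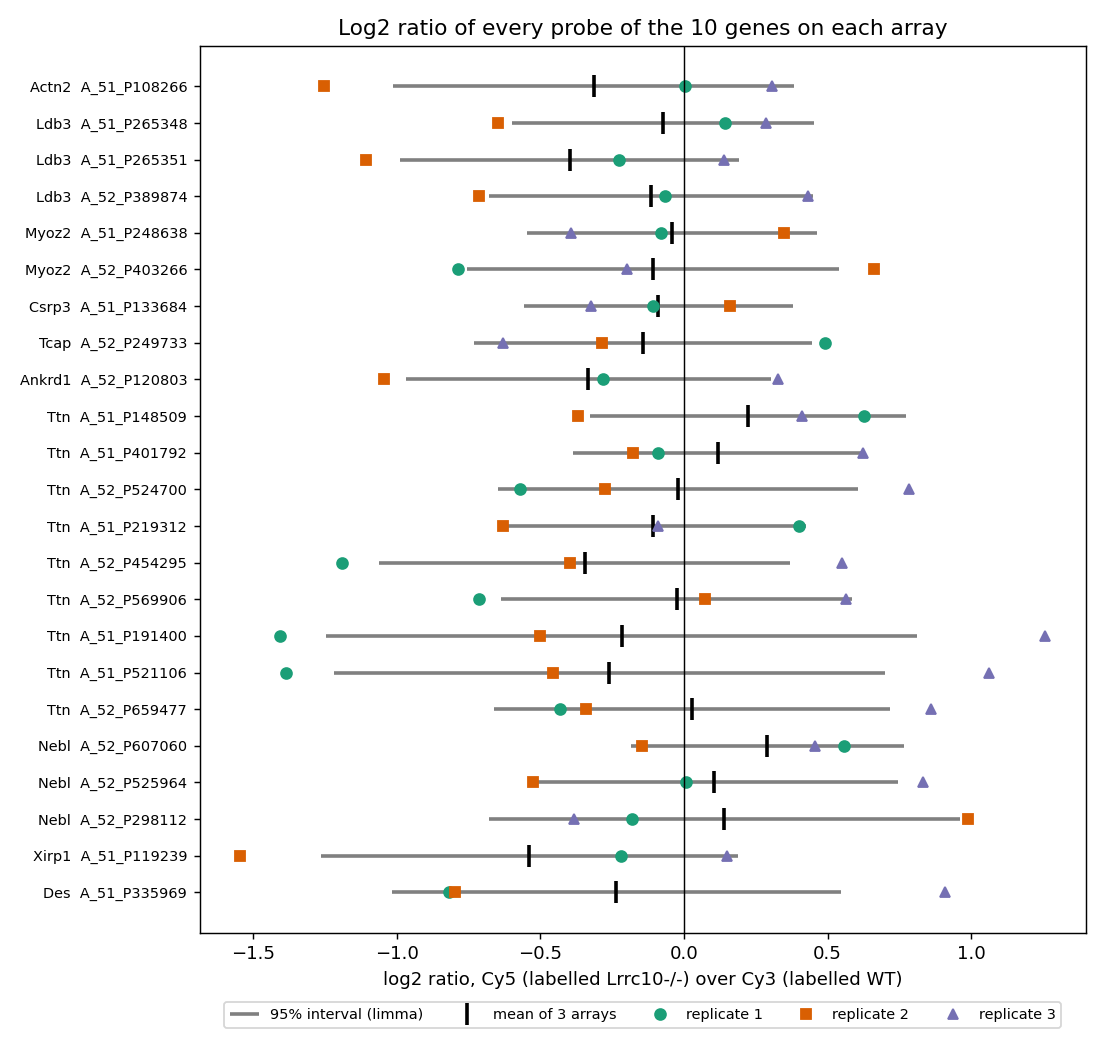
Log2 ratio (horizontal axis), with the channel labelled Lrrc10-/- (Cy5) divided by that labelled WT (Cy3), for each of the 23 probes (rows). Circles, squares and triangles are replicates 1, 2 and 3, black ticks are the means of 3 arrays and grey lines are the 95% intervals of limma. Each row has points on both sides of 0, and each grey line crosses 0. The points of Tcap on all arrays, of Csrp3 on replicate 3 and of Ankrd1 on replicate 2 rest on saturated signals.

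Titin (Ttn) spans from the Z-disc to the M-band and acts as the spring of the sarcomere. In the heart it is made as the stiff N2B isoform and the longer, compliant N2BA isoform, and the short NOVEX-3 form ends near the Z-disc. The 9 Ttn probes annotate an N2-A record (6 probes), an N2-B record (2 probes) and a cDNA clone named for NOVEX-3 (1 probe). Most titin exons are shared between isoforms, so the record a probe was designed on does not make it specific to that isoform.

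The brightest Ttn probe, A_51_P148509 of the N2-A record, read 50494, 64613 and 80028 in Cy5 and 32679, 83520 and 60125 in Cy3. Its log2 ratios were 0.63, −0.37 and 0.41, so that Cy5 was brighter on replicates 1 and 3 (mean 0.22; 95% interval −0.33 to 0.77). The mean was 0.52 without replicate 2 and 0.02 without replicate 1. In A_51_P148509 every reading frame holds a stop codon. On replicate 1 the N2-B coding probes differed from it in sign, as did the other N2-A probes described below. A_51_P401792 read 23296, 39449 and 28999 in Cy5 and 24786, 44566 and 18845 in Cy3, with log2 ratios of −0.09, −0.18 and 0.62. A_52_P524700 read 11292, 21478 and 14586 in Cy5 and 16777, 26014 and 8474 in Cy3, with log2 ratios of −0.57, −0.28 and 0.78. Both were below 0 on replicates 1 and 2 and above 0 on replicate 3.

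The widest swing among all 23 probes was in the coding N2-A probe A_51_P191400. It read 181, 518 and 706 in Cy5 and 479, 733 and 295 in Cy3. Its log2 ratios were −1.41, −0.50 and 1.26, an SD of 1.36 around a mean of −0.22 (95% interval −1.25 to 0.81). The probe A_51_P521106 had nearly the same ratios, at −1.39, −0.46 and 1.06. In both probes the Cy5 signal varied more over the arrays than the Cy3 signal, by 3.91-fold against 2.48-fold from lowest to highest for A_51_P191400 and by 3.37-fold against 1.98-fold for A_51_P521106.

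The N2-A probes not yet described also were negative on replicate 1 and positive on replicate 3. A_52_P454295 had log2 ratios of −1.19, −0.40 and 0.55, A_52_P569906, which holds the repeated run, had −0.71, 0.07 and 0.56, and A_52_P659477 had −0.43, −0.34 and 0.86. The NOVEX-3 probe A_51_P219312 differed, at 0.40, −0.63 and −0.09. In all, 7 of 9 Ttn probes were negative on replicate 1 and positive on replicate 3, and the exceptions were the N2-A probe A_51_P148509 and the NOVEX-3 probe A_51_P219312. On replicate 1 the 9 probes of this single gene ranged from −1.41 to 0.63. The mean ratios of the 9 probes ran from −0.35 to 0.22, and the probes share arrays and gene, so they are not replicates.

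**Figure D3:**
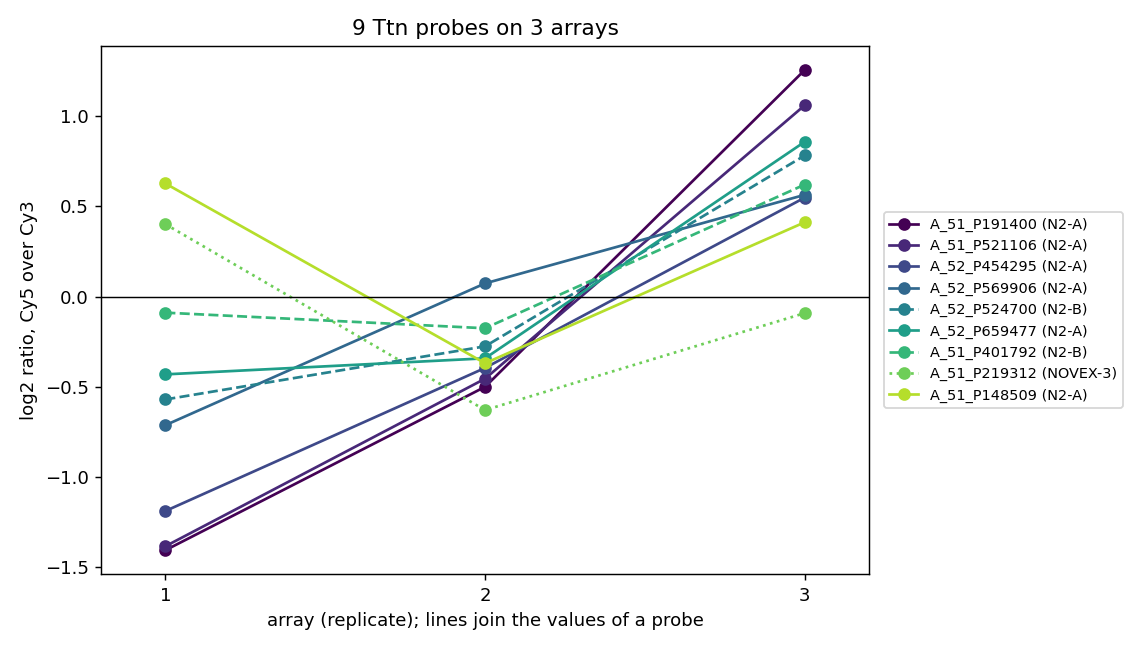
Log2 ratio of Cy5 over Cy3 (vertical axis) of the 9 Ttn probes on arrays 1 to 3 (horizontal axis), with lines joining the values of a probe. Solid, dashed and dotted lines are probes annotating the N2-A, N2-B and NOVEX-3 records. The probes span −1.41 to 0.63 on array 1 and lie above 0 on array 3 except for the NOVEX-3 probe.

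Nebl (nebulette) is the cardiac member of the nebulin family and binds actin, alpha-actinin and desmin at the Z-disc. Its brightest probe, A_52_P607060, read 7242, 10068 and 8060 in Cy5 and 4922, 11134 and 5868 in Cy3. Cy5 was brighter on replicates 1 and 3 and the channels were close on replicate 2. The mean log2 ratio of 0.29 ± 0.38 (SD, n = 3; 95% interval −0.19 to 0.77; limma adjusted p = 1.00) was the highest measured among the probes without saturated spots, and it was 0.51 without replicate 2 and 0.16 without replicate 1. The probe A_52_P525964 had log2 ratios of 0.01, −0.53 and 0.83. The dim clone probe A_52_P298112 had −0.18, 0.99 and −0.38, and it was not well above background in Cy3 on replicate 2, which makes its positive ratio there a bound on a dim signal.

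Xirp1 (Xin) is an actin-binding repeat protein found mainly at the intercalated discs of the heart. Its Cy5 signal was 2002, 2114 and 3457, and its Cy3 signal was 2331, 6170 and 3119. The Cy3 signal of replicate 2 stood above all the others. The log2 ratios were −0.22, −1.55 and 0.15, with a mean of −0.54 ± 0.89 (SD, n = 3; 95% interval −1.26 to 0.19; limma adjusted p = 1.00). This was the lowest mean measured among the probes without saturated spots. It was −0.04 without replicate 2, −0.70 without replicate 1 and −0.88 without replicate 3 (limma adjusted p = 0.148).

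Des (desmin) forms the intermediate filaments that tie Z-discs to each other and to the sarcolemma, and it is also made in smooth muscle. Its probe covers the end of the coding sequence and was spotted 10 times on each array, so that error within an array can be read apart from error between arrays. The mean Cy5 signal was 15482, 25495 and 16813, and the mean Cy3 signal was 27283, 44301 and 8958. Cy3 was brighter on replicates 1 and 2 and Cy5 was brighter on replicate 3.

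Within each array all 10 Des spots had the same sign. The spots ran from −1.24 to −0.69 on replicate 1, from −0.89 to −0.76 on replicate 2 and from 0.84 to 0.98 on replicate 3. Their SD was 0.16, 0.036 and 0.053. The SD of the 3 array means was 0.99, around a mean of −0.24 (95% interval −1.02 to 0.55; limma adjusted p = 1.00). The largest scanner p among the 10 spots was 0.00121, 4.04e-04 and 1.22e-04 on replicates 1, 2 and 3. Spots of an array repeat the same hybridized RNA and arrays do not, so these SDs measure different errors.

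**Figure D4:**
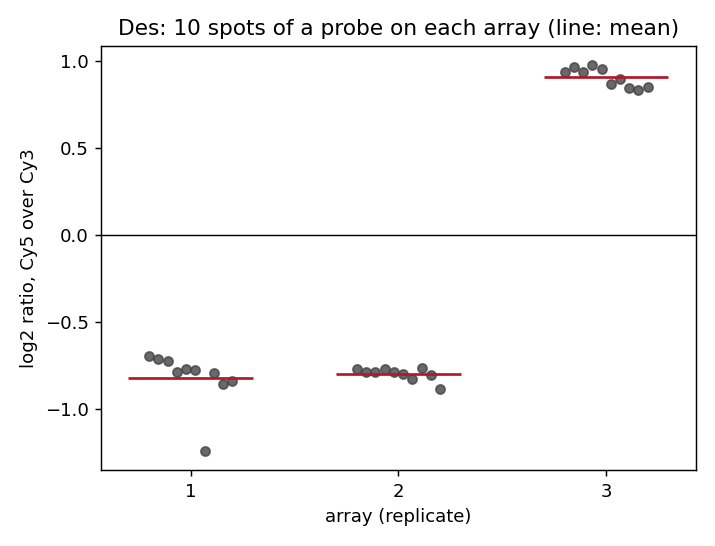
Log2 ratio of Cy5 over Cy3 (vertical axis) of the 10 Des spots on each of arrays 1 to 3 (horizontal axis). Points are spots and red lines are the mean of an array. The spots of arrays 1 and 2 lie below 0, between −1.24 and −0.69, and those of array 3 lie above 0, between 0.84 and 0.98.

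Read array by array, many of the Z-disc probes passed a ratio of at least 1.2 with an array p under 0.05, but in directions that changed. On replicate 1, 3 of 23 probes were brighter in Cy5 (13.0%, beside 12.2% of all tested probes) and 8 in Cy3 (34.8%, beside 13.0%). The 8 probes came from Des, Myoz2 and 6 probes of Ttn. On replicate 2, 2 probes were brighter in Cy5 (8.70%, beside 19.0%) and 11 in Cy3 (47.8%, beside 18.6%). These 11 probes came from 7 of 10 genes, including Actn2, Ldb3, Xirp1, Ankrd1 and Des. On replicate 3, 12 probes were brighter in Cy5 (52.2%, beside 14.9%), namely 8 probes of Ttn, 2 of Nebl and 1 each of Des and Ldb3. A single probe, that of Tcap, was brighter in Cy3 there as measured (4.35%, beside 13.7%), but its Cy5 signal was saturated. Probes of the same gene are counted separately in these shares, and a p of an array covers 1 pair of pools.

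**Figure D5:**
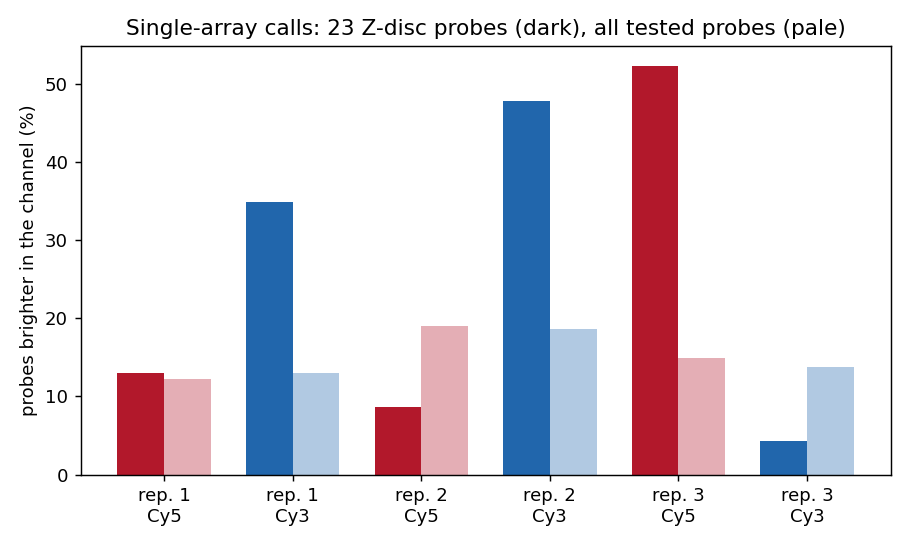
Share of probes in percent (vertical axis, from 0) that passed a ratio of at least 1.2 and an array p under 0.05 on a single array, by array and brighter channel (horizontal axis). Dark bars are the 23 Z-disc probes and pale bars are all 29576 tested probes. The dark bar is highest in Cy3 on replicate 2 (47.8%) and in Cy5 on replicate 3 (52.2%).

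The Z-disc probes also varied more between arrays than most probes. Over the 23 probes the SD of the log2 ratio had a median of 0.69, and of 0.55 over the brightest probe of each gene, beside 0.39 over all tested probes. The SD of 20 of 23 probes lay above that median of all probes. With each channel centred on its array median, the 23 probes had a median SD of 0.39 in Cy5 and 0.47 in Cy3 on the log2 scale, beside 0.22 and 0.38 over all tested probes. Over the brightest probes, some of them saturated, it was 0.18 in Cy5 and 0.54 in Cy3. Cy3 varied more than Cy5 in 14 of 23 probes (60.9%) and in 8 of 10 brightest probes, beside 77.7% of all tested probes. Across the 23 probes, which share arrays and include 9 of Ttn, the correlation of log2 ratios was −0.05 between replicates 1 and 2, −0.54 between 1 and 3 and −0.35 between 2 and 3.

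Markers of other cell types were read on the same arrays. All 5 smooth muscle markers were tested and were well above background throughout. Their median log2 ratio was −0.02, −0.45 and 0.51 on replicates 1, 2 and 3, and their summed signal ran from 20148 to 36644 in Cy5 and from 23742 to 35099 in Cy3. Acta2, Myh11 and Smtn were negative on replicate 2 and positive on replicate 3, like the median of the Z-disc genes. Tagln had −0.76, 0.14 and 0.81, and Cnn1 was positive on every array, at 0.90, 0.43 and 0.34. The part of these markers in the result was not tested. Median ratios of skeletal muscle markers (12 genes tested, 2 of them with saturated probes) were −0.14, −0.14 and −0.19. Those of fibroblast markers (8 genes) were 0.34, −0.14 and −0.05, and those of endothelial markers (6 genes) 0.15, −0.57 and −0.25. Atrial markers (6 genes tested) had −0.02, 0.97 and −0.54. Red blood cell markers (4 genes tested, 2 of them with saturated probes) had 0.54, 0.78 and −0.17. Cardiomyocyte markers (9 genes, 7 of them with saturated probes) had −0.36, −0.48 and −0.21. Adipose markers (5 genes tested, 1 of them with a saturated probe) had 0.46, −0.28 and −0.95. Of these 5 genes, 3 were not well above background in Cy3 on replicate 1, and 2 were not in Cy5 on replicates 2 and 3. Retn, whose ratios are the adipose medians of replicates 1 and 3, was not well above background in Cy5 on any array. Immune markers (6 genes) had −0.08, 0.26 and −0.19.

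A wider list of 51 other Z-disc genes, of which 50 were tested with 99 probes, was read in the same way. Its median log2 ratio was −0.04, beside −0.12 for the 10 genes above, and by array it was 0.08, −0.18 and 0.15. With saturated probes left out these medians were −0.04 over 49 genes and −0.07 over 7. With limma 0 of the 50 genes passed at an adjusted p under 0.05, beside 0.00676% of all tested probes. An unadjusted p under 0.05 was seen in 1 gene, beside 3.07%. By the selection of the methods 0 were brighter in Cy5 (background 0.406%) and 1 was brighter in Cy3 (background 0.511%). That gene was Fhl2, a LIM protein that binds titin and several kinases and transcription factors. It read 111920, 157914 and 110429 in Cy5 and 193094, 213197 and 148344 in Cy3. Its probe was saturated throughout in Cy5 and on replicates 2 and 3 in Cy3, so that its direction is not settled and no ratio is given.

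As measured, ratios of one sign on all arrays were seen in 8 of the 50 genes, 5 brighter in Cy5 and 3 in Cy3 with the saturated Fhl2 among them, beside the 21.0% of all tested probes. Among the 48 genes with an unsaturated probe well above background, the highest mean log2 ratios were those of Xirp2 (0.46), Sorbs2 (0.40) and Nexn (0.36). Xirp2, the relative of Xirp1, had 0.61, 0.60 and 0.16 (95% interval −0.0029 to 0.92), where Xirp1 changed sign. The lowest were Actn4 (−0.55), Rcan1 (−0.49) and Ankrd23 (−0.37). Actn4, a non-muscle alpha-actinin, had 0.07, −1.27 and −0.45, and like Actn2 it was lowest on replicate 2. Rcan1, a calcineurin inhibitor, had −0.76, −0.73 and 0.04. All 6 genes had an adjusted p of 1.00 in limma. The median SD of the 50 genes was 0.37, beside 0.55 for the 10 genes. Between the groups within the 50 genes it ran from 0.21 for LIM proteins to 0.65 for the calsarcin, myotilin and palladin family.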

How the data were processed

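Total RNA of mouse hearts was measured on 3 whole mouse genome arrays with 2 colours. The authors deposited the scanner output of Agilent Feature Extraction for each array. The deposited mean and background signal intensities are unnormalized. In the deposited processed signal intensities the local background had been subtracted, trends over the array removed and the dyes of an array normalized to each other with linear and lowess steps. The deposited log10 ratio was computed from the processed signals, and the deposited p-value belongs to 1 spot of 1 array. A separate table of log10 ratios, as deposited, equals those of the arrays apart from 1 missing value. No genome build is named in the sources used here, and positions of probes were not used.

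Control and outlier spots were left out and saturated spots were kept. Spots of the same probe were averaged as log2 ratios, Cy5 divided by Cy3. Gene names are those of the array, checked against a RefSeq table. Probes with a mean processed signal of at least 20 were tested against 0, two-sided, with limma 3.58.1 in R 4.3.3 (eBayes with an intensity trend) and Benjamini-Hochberg adjustment over all 29576 probes, at an adjusted p under 0.05. The fit was tested on simulated data. The selection of the methods asked for a p under 0.05, a signal of at least 20 and a change of at least 1.2-fold on all 3 chips. The methods name a t-test for statistics unless stated otherwise, and do not say how the p of this selection was computed. The p of each array was used here. A gene with several probes was represented by its brightest probe in medians and counts of genes. Every member gene was named, with the deleted gene. Of the other Z-disc genes, those that passed a test and the 3 highest and 3 lowest unsaturated ones were named. Nppa, Myl7, Sln and the smooth muscle genes were named after their values were seen. The genes, lists and tests were chosen with earlier results of these data known. Alternatives were normexp background correction with loess or with median centring, signal minima of 0 and 50, omission of saturated probes, the table of log10 ratios, no intensity trend, the t-test of the methods, a fold change without the array p, the mean over the probes of a gene, and omission of each array. Precision is limited by the number of arrays. All arrays lay on the same slide and were read in the same scan, which leaves no batch to test. P-values measure the spread between arrays of pooled hearts.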

Additional observations from a re-analysis of the deposited data

How the results depend on the processing

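No Z-disc probe passed limma at an adjusted p under 0.05 under any of the alternatives run, and the lowest adjusted p of the moderated fits with an intensity trend was 0.0817, for Myoz2 with normexp and median centring. Leaving out saturated probes gave a median of −0.07 over 7 genes in place of −0.12 over the 10 genes. With median centring the median over the 10 genes was 0.55, with 0.15 over all tested probes. Both −0.12 and 0.55 lie between the means of Tcap and Csrp3, which include saturated spots. That over the other Z-disc genes was 0.32 with median centring in place of −0.04, and 18 of 23 probes lay above 0 in place of 6. The mean log2 ratio turned positive with median centring for Actn2 (0.10), Ldb3 (0.64), Myoz2 (0.73) and Des (0.21). It did so with normexp and loess for Ldb3 (0.21) and Myoz2 (0.25). The cause was not tested. The number of the 23 probes with an unadjusted limma p under 0.05 was 6 with median centring (30.6% of all tested probes), 6 without replicate 3 (6.72%), 2 without replicate 2 (4.83%) and 0 without replicate 1 (2.00%). Without replicate 3 limma called 543 of all tested probes. With an array left out, the log2 ratio ran from −0.63 to 0.15 for Actn2, −0.25 to 0.21 for Ldb3 and −0.66 to 0.022 for Ankrd1 (each highest without replicate 2), from −0.24 to 0.14 for Myoz2 (highest without replicate 3), and from −0.81 to 0.056 for Des, positive without replicate 1 or 2. With an array left out, the probes selected ranged from 0 to 2 in Cy5, the 2 being Nebl A_52_P607060 and Ttn A_51_P148509 without replicate 2 (1.94% of all tested probes there), and from 0 to 3 in Cy3, the 3 being Des, Ttn A_51_P521106 and Ttn A_51_P191400 without replicate 3 (2.25%). Of the 50 other Z-disc genes, by any of their probes, 5, 6 and 7 were selected without replicates 1, 2 and 3, beside 2.25%, 1.94% and 3.95% of all tested probes in Cy5 and 1.48%, 2.15% and 2.25% in Cy3, and 0 were with median centring and 0 without saturated probes. Xirp1, Nebl and Ttn (by its brightest probe) kept their direction under the alternatives run. For Ttn this describes that probe only, since the mean ratios of its 9 probes ran from −0.35 to 0.22. The values of Ankrd1 include a saturated spot except without replicate 2. For Tcap and Csrp3 the measured mean is no estimate of a ratio, since Cy5 was saturated, and its sign is not read. The exception is Csrp3 without replicate 3, at 0.028, where no spot was saturated. For Tcap and Csrp3 in that order, the measured mean was 0.60 and 0.51 with median centring, and 0.12 and 0.031 with normexp and loess. With an array left out it ran from −0.46 to 0.10 for Tcap and from −0.22 to 0.028 for Csrp3. Each array gives 1 ratio, which already pairs its channels, and the arrays form 1 group, so no further pairing was possible.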
